A study of Mus musculus with 8 samples.

Results

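TBC-domain Rab GTPase-activating proteins are the gene family to which TBC1D4 itself belongs, and 40 of its genes were read on arrays of sorted mouse distal convoluted tubule (DCT), a short stretch of the nephron between the thick ascending limb and the connecting tubule. The genes were taken by symbol from the platform annotation (Tbc1d followed by a number, together with Sgsm1, Sgsm2, Sgsm3, Rabgap1, Rabgap1l, Evi5, Evi5l, Usp6nl, Tbck and Grtp1), out of 18782 genes with a probe set of exactly 1 symbol. They were covered by 43 probe sets, and each gene is represented by its brightest one. The arrays held 4 TBC1D4-deficient and 4 wild-type samples from male C57/Bl6 mice aged 8 weeks. Mice of both genotypes also carried 1 copy of a transgene that places EGFP under the parvalbumin promoter (PV-EGFP wt/tg), and the green tubule pieces were picked out by COPAS, a flow sorter for large particles. That promoter is active mainly in the early DCT. The sources used here do not say which part of Tbc1d4 was deleted or whether each sample came from its own mouse. A p-value therefore reflects only how much these 8 samples vary, which may be technical.

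Rab GTPases mark the membranes of the cell and recruit the machinery that moves, tethers and fuses vesicles while they hold GTP. A TBC domain supplies an arginine and a glutamine to the active site of a Rab, speeds GTP hydrolysis and so switches the Rab off. TBC1D4 (AS160) and its closest paralog TBC1D1 act on Rab8a, Rab10 and Rab14, and phosphorylation by Akt or AMPK restrains them and lets GLUT4 vesicles reach the plasma membrane of muscle and fat. The comparison between genotypes asks whether the transcripts of the other family members differ in DCT that lacks TBC1D4.

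Tbc1d4 fell in the TBC1D4-deficient tubules, and no other family member passed the test. The log2 intensity of Tbc1d4 (probe set 10422028, chromosome 14) was 2.48, 2.72, 2.50 and 2.21 in TBC1D4-deficient replicates 1 to 4, against 6.69, 6.79, 6.58 and 6.94 in wild-type replicates 1 to 4. The groups lay far apart, and all 4 TBC1D4-deficient values were below the median probe set of the arrays (3.07 to 3.17 on the log2 scale). On that scale Tbc1d4 differed by -4.27 (SE 0.11, limma adjusted p = 6.35e-08). On the deposited intensities this is a factor of 19.3 (95% interval 16.3 to 22.9), but the table holds no detection call and the TBC1D4-deficient signal is not shown to be above background, so the size of the fold is uncertain beyond that interval. With 8 added to each intensity, the log2 difference of Tbc1d4 was -3.09 (limma adjusted p = 2.62e-06). Whether this probe set reads the deleted part of the gene is not known here. An exact 2-sided permutation test over the 70 assignments of arrays gave p = 0.0286, the smallest it can give. Over all 23039 probe sets with at least 1 symbol, 0.00434% were called in either direction, which is Tbc1d4 alone, and 0% were called higher.

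The pair Tbc1d4 and Tbc1d1 carries the comparison, and their promoters differ in CG content. The windows below come from RefSeq on GRCm38.p6, span 300 bases around an annotated start, most of them before it, and have each CG dinucleotide in capitals. A CG reads the same on both strands. For Tbc1d1 the first of its annotated starts in the table is shown.
Tbc1d4, chr14:101609142-101609441, minus strand: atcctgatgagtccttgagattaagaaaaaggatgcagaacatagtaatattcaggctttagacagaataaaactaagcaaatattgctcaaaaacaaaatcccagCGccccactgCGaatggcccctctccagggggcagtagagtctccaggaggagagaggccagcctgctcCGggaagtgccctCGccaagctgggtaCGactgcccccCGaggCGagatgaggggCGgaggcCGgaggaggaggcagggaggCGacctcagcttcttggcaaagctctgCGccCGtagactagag
Tbc1d1, chr5:64160010-64160309, plus strand: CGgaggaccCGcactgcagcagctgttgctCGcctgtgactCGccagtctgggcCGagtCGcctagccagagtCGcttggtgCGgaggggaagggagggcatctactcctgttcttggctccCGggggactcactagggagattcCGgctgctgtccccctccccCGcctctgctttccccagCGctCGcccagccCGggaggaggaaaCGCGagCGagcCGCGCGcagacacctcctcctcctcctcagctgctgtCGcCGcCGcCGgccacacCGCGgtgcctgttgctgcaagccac
The Tbc1d4 window held 12 CG dinucleotides and the Tbc1d1 window held 26. Among 43 windows of 33 family genes (7 genes had no entry), the median was 23 and the range 1 to 51, beside a median of 7 over all 32851 windows of the table. A count of 10 or more was found in 34 of the 43 windows (79.1%) and in 43.5% of all windows. The lowest count among genes with 1 window belonged to Tbc1d21, a gene of male germ cells, with 1. The arrays carry no measurement on these promoters.

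Tbc1d1, the paralog most like the missing protein, did not pass the test, and its interval was narrow. Its log2 intensity was 6.78, 6.87, 6.77 and 6.87 in TBC1D4-deficient replicates 1 to 4, against 6.72, 6.88, 6.88 and 6.75 in wild-type replicates 1 to 4. The groups overlapped, with the wild-type arrays both lowest and highest. The log2 difference was 0.02 (95% interval -0.13 to 0.16, limma adjusted p = 0.9999), and the upper end of that interval corresponds to a level 1.12 times that of wild-type tubules. Its sign was not stable: the difference was -0.06 among the 4 arrays whose descriptions open with the numbers 5 to 8 and 0.09 among those with 9 to 12, numbers whose meaning the labels do not give and which are balanced over genotype.

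**Figure D1:**
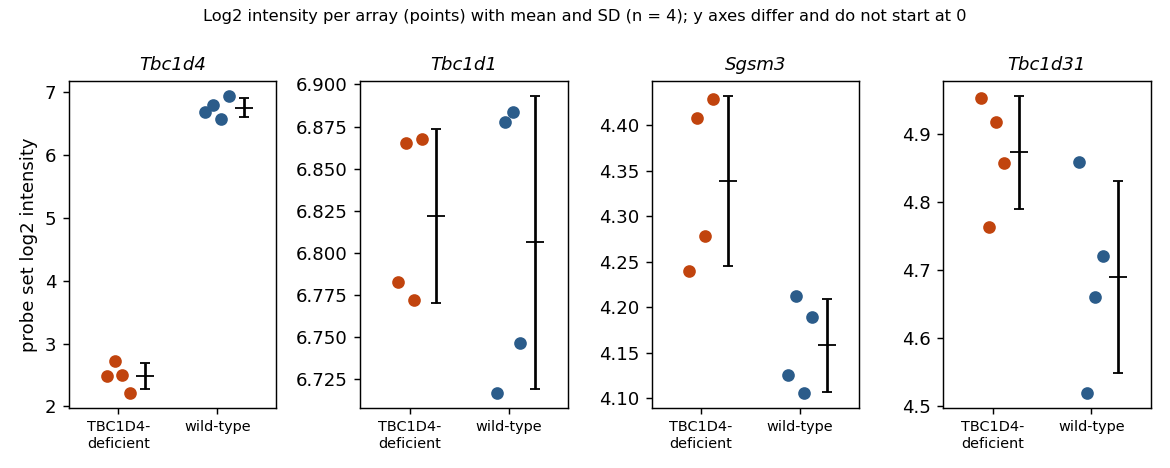
Log2 intensity of Tbc1d4, Tbc1d1, Sgsm3 and Tbc1d31 in each of 4 TBC1D4-deficient and 4 wild-type arrays (points), with the mean and SD beside them. Tbc1d4 lies at 2.21 to 2.72 in the TBC1D4-deficient arrays, against 6.58 to 6.94 in wild-type arrays, while the other genes differ by under 0.2 between group means.

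The 39 other family members were spread around 0. Of these, 21 lay above and 18 below 0, beside 49.1% above 0 over all probe sets tested. Their log2 differences ran from -0.19 to 0.19 with a median of 0.0076, against a median of -0.0017 over all probe sets. Most of the members (36 of 39) read above the array median. Among all probe sets at that level, 6625 of 12561 lay above 0, with a median of 0.0046. The 95% interval lay inside 1.5-fold for 38 of the 39, beside 97.4% of all probe sets. The half-width of the interval was 0.18 at the median and ran from 0.13 to 0.51. An unadjusted p under 0.05 was reached upward by 2 members (Sgsm3 and Tbc1d31), beside 1.42% of all probe sets, and downward by 0, beside 1.48%. In either direction it was reached by 2.9% of all probe sets. None of the 39 passed after adjustment over all probe sets (limma adjusted p = 0.9999 for each). Groups did not overlap upward in 1 of the 39 (0.942% of all probe sets) and downward in 0 (0.907%), or 1.85% of all probe sets in either direction.

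**Figure D2:**
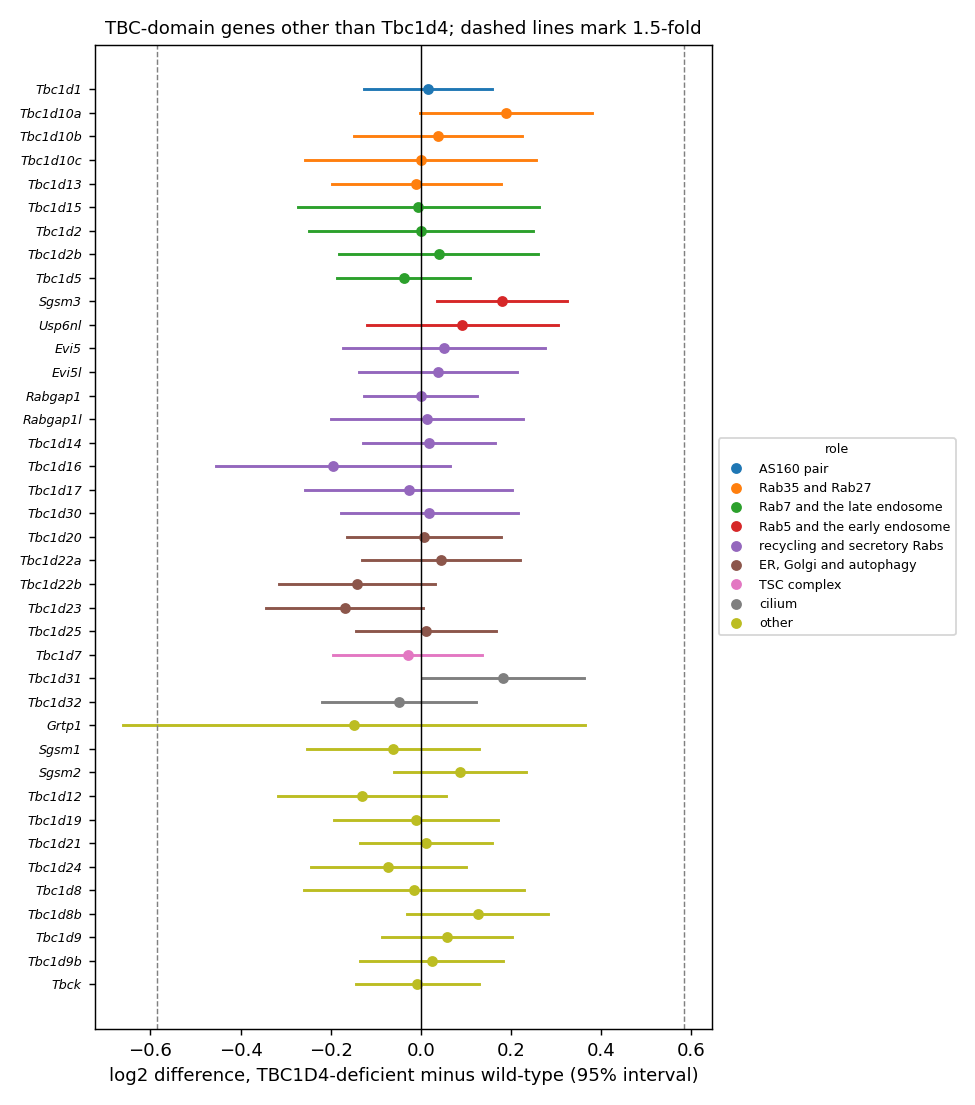
Log2 difference between TBC1D4-deficient and wild-type tubules for the 39 family members other than Tbc1d4, with 95% intervals from limma, coloured by role; dashed lines mark 1.5-fold. All points lie between -0.19 and 0.19, and the interval of Grtp1 alone crosses a dashed line.

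Both members that act on Rab5 and the early endosome had differences above 0, and neither passed the test. Sgsm3 (RUTBC3), a GAP for Rab5, had log2 intensities of 4.24, 4.41, 4.28 and 4.43 in TBC1D4-deficient replicates 1 to 4, against 4.13, 4.21, 4.11 and 4.19 in wild-type replicates 1 to 4. Every TBC1D4-deficient array lay above every wild-type array, though replicate 1 stood only just above wild-type replicate 2. The log2 difference of Sgsm3 was 0.18 (95% interval 0.04 to 0.33, limma adjusted p = 0.9999). Taken by number set, Sgsm3 differed by 0.19 in arrays 5 to 8 and by 0.17 in arrays 9 to 12. Usp6nl (RN-tre), the other Rab5 GAP of the family, averaged 6.35 ± 0.11 in TBC1D4-deficient and 6.26 ± 0.18 in wild-type arrays (SD, n = 4 each), a difference of 0.09 (-0.12 to 0.31). Its second, dimmer probe set stood at -0.03.

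Another member with an unadjusted p under 0.05 was Tbc1d31 (WDR67), a protein of the centrosome and the ciliary base. Its log2 intensity was 4.95, 4.76, 4.92 and 4.86 in TBC1D4-deficient replicates 1 to 4, against 4.86, 4.52, 4.66 and 4.72 in wild-type replicates 1 to 4. The groups overlapped through wild-type replicate 1. The difference was 0.18 (0.0033 to 0.36, limma adjusted p = 0.9999), with 0.30 in arrays 5 to 8 and 0.07 in arrays 9 to 12. Tbc1d32 (broad-minded), needed for cilia and Hedgehog signalling, stood at -0.05 (-0.22 to 0.12). Beside these values, the mean of 13 endothelial markers (log2 values minus the average of each gene) ran from -0.38 to 0.0013 in TBC1D4-deficient arrays and from 0.03 to 0.21 in wild-type arrays. Like Sgsm3, and unlike Tbc1d31, this mean did not overlap between genotypes. All 13 of these markers were lower in the TBC1D4-deficient group. Of them 8 had an unadjusted p under 0.05 (beside 1.48% of all probe sets in that direction), 2 did not overlap between groups (beside 0.907%) and 0 passed after adjustment. These markers share a cell type and were read in the same samples, so the counts are not of independent results. The part of the endothelial marker mean in the values of Sgsm3 and Tbc1d31 was not tested.

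GAPs for Rab35 and Rab27 were close to 0 except for Tbc1d10a. Tbc1d10a (EPI64), which binds the microvillar scaffold EBP50, had log2 intensities of 5.03, 4.94, 4.71 and 4.71 in TBC1D4-deficient replicates 1 to 4, against 4.61, 4.73, 4.73 and 4.57 in wild-type replicates 1 to 4. Its 2 high arrays were TBC1D4-deficient replicates 1 and 2, and the other two lay within the wild-type range. The difference of 0.19 (-0.0013 to 0.38) came to -0.01 in arrays 5 to 8 and 0.39 in arrays 9 to 12. Tbc1d10b stood at 0.04 (-0.15 to 0.22) and Tbc1d13, a Rab35 GAP, at -0.01 (-0.20 to 0.18). Tbc1d10c (carabin), best known from lymphocytes, stood at -0.00021 (-0.26 to 0.26) and read below the array median.

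The 4 members listed under Rab7 and the late endosome ran from -0.04 to 0.04. The listing does not make each of them a Rab7 GAP. Tbc1d5, a Rab7 GAP that works with the retromer coat, averaged 5.31 ± 0.06 in TBC1D4-deficient and 5.35 ± 0.09 in wild-type arrays (SD, n = 4 each), and its much dimmer second probe set stood at 0.08 against -0.04 for the first. Tbc1d2 (Armus) averaged 4.84 ± 0.15 in TBC1D4-deficient and 4.84 ± 0.21 in wild-type arrays (SD, n = 4 each), a difference of 2.7e-05 with an interval of -0.25 to 0.25. Tbc1d2b stood at 0.04 and Tbc1d15, a Rab7 GAP recruited to mitochondria, at -0.0056.

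Members that act on recycling and secretory Rabs numbered 8, with 5 above and 3 below 0 and a median of 0.02. Rabgap1, which acts on Rab6 and Rab4, varied least of the family within genotypes (residual SD 0.05 on the log2 scale). It averaged 6.70 ± 0.06 in TBC1D4-deficient and 6.70 ± 0.01 in wild-type arrays (SD, n = 4 each), with an interval of -0.13 to 0.13. Tbc1d14, which regulates Rab11-positive recycling endosomes and autophagy, stood at 0.02 (-0.13 to 0.16), and Evi5, a protein that binds Rab11, at 0.05 (-0.17 to 0.28). Evi5l, a Rab23 GAP, stood at 0.04, Rabgap1l at 0.01, Tbc1d30, a Rab8a GAP of cilia that read below the array median, at 0.02 and Tbc1d17, a regulator of Rab8, at -0.03.

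Tbc1d16, a Rab4a GAP, had the lowest difference of the 39, -0.19 (-0.45 to 0.07), and among the widest spreads. Its log2 intensity was 4.17, 4.30, 4.19 and 3.99 in TBC1D4-deficient replicates 1 to 4, against 4.32, 4.13, 4.70 and 4.29 in wild-type replicates 1 to 4. Wild-type replicate 3 stood above all other arrays and the remaining values overlapped.

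In the endoplasmic reticulum, Golgi and autophagy group, 3 members lay above and 2 below 0. Tbc1d23, a bridge between golgins and endosome-derived vesicles, had log2 intensities of 5.33, 5.24, 5.18 and 5.29 in TBC1D4-deficient replicates 1 to 4, against 5.55, 5.29, 5.34 and 5.54 in wild-type replicates 1 to 4. Wild-type replicates 1 and 4 were high, and wild-type replicate 3 lay only just above TBC1D4-deficient replicate 1. The groups overlapped through wild-type replicate 2, for a difference of -0.17 (-0.34 to 0.0043). Tbc1d22b stood at -0.14 (-0.31 to 0.03) and its relative Tbc1d22a at 0.04 (-0.13 to 0.22). Tbc1d20, the Rab1 GAP of the endoplasmic reticulum, stood at 0.0076 (-0.16 to 0.18), and Tbc1d25 (OATL1), a Rab33b GAP that binds autophagosomes, at 0.01 (-0.14 to 0.17).

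Tbc1d7, the third subunit of the TSC complex that holds mTORC1 in check, averaged 6.48 ± 0.10 in TBC1D4-deficient and 6.51 ± 0.09 in wild-type arrays (SD, n = 4 each), a difference of -0.03 (-0.19 to 0.14). Its partners Tsc1 and Tsc2 stood at 0.14 (-0.02 to 0.30) and 0.06 (-0.09 to 0.21). Rptor and Rheb, of the same pathway, stood at -0.03 and -0.02. Of 5 such genes, 3 lay above and 2 below 0, and 0 passed.

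The remaining 12 members have less settled or more varied roles, and 5 lay above and 7 below 0. Tbck, a pseudokinase with a TBC domain, averaged 6.97 ± 0.04 in TBC1D4-deficient and 6.97 ± 0.08 in wild-type arrays (SD, n = 4 each), with an interval of -0.14 to 0.13. Tbc1d8b, whose human counterpart is mutated in nephrotic syndrome, stood at 0.13 (-0.03 to 0.28), and Tbc1d24, mutated in human epilepsies, at -0.07 (-0.24 to 0.10). Tbc1d12 stood at -0.13 (-0.32 to 0.06). Sgsm1 and Sgsm2, both relatives of Sgsm3, stood at -0.06 and 0.09. Tbc1d8, Tbc1d9, Tbc1d9b and Tbc1d19 stood at -0.02, 0.06, 0.02 and -0.01. Tbc1d21 averaged 1.86 ± 0.09 in TBC1D4-deficient and 1.85 ± 0.06 in wild-type arrays (SD, n = 4 each), below the array median. In all, 3 of the 40 members read below the array median on average, against 45.5% of all probe sets tested. These shares are not alike, since each member is its gene's brightest probe set and the 45.5% includes dimmer ones. The second probe sets of Tbc1d5 and Usp6nl stood at percentiles 11.6 and 45.8 on average, and that of Tbc1d9 at 66.0.

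Grtp1 (growth hormone-regulated TBC protein) had the largest spread of the family within genotypes (residual SD 0.41), and it had the largest slope on markers of proximal tubule. Its log2 intensity was 3.40, 3.71, 3.85 and 4.32 in TBC1D4-deficient replicates 1 to 4, against 3.48, 3.74, 4.45 and 4.21 in wild-type replicates 1 to 4. The genotypes overlapped, with a difference of -0.15 (-0.66 to 0.36). The mean of 21 proximal tubule markers was -1.01, 0.24, 0.09 and 0.12 in TBC1D4-deficient replicates 1 to 4, against -0.48, -0.29, 0.65 and 0.69 in wild-type replicates 1 to 4. The arrays lowest in Grtp1, replicate 1 of each genotype, were also lowest in the markers, while TBC1D4-deficient replicate 4 was high in Grtp1 at a middling marker mean. In a limma fit with genotype and the marker mean, Grtp1 had a slope of 0.58 per log2 unit of the marker mean (95% interval 0.28 to 0.87), and it did not pass after adjustment over all probe sets (limma adjusted p = 0.107). It passed without TBC1D4-deficient replicate 2 (slope 0.66, limma adjusted p = 0.0232) and with no genotype term (slope 0.57, limma adjusted p = 0.0484).

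**Figure D3:**
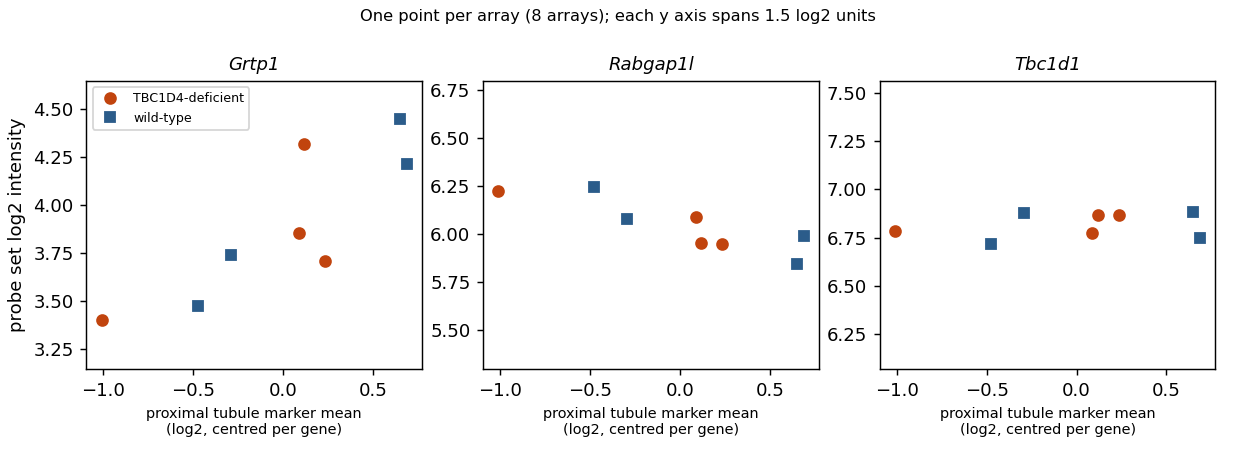
Log2 intensity of Grtp1, Rabgap1l and Tbc1d1 (vertical axis, each spanning 1.5 log2 units) against the mean of 21 proximal tubule markers after subtracting the average of each (horizontal axis, log2), with 1 point per array. Grtp1 is highest in wild-type replicate 3 (4.45) and lowest in TBC1D4-deficient replicate 1 (3.40), Rabgap1l slopes slightly down and Tbc1d1 shows little slope.

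None of the 40 members passed on the marker slope, beside 1.16% of all probe sets in either direction, 1.15% with a positive slope and 0.00868% with a negative one. The shares over all probe sets include the 21 markers that make up the mean, of which 19 were called, all with a positive slope. An unadjusted p under 0.05 was reached by 4 of the 40 members, beside 6.96% of all probe sets. The second of these was Rabgap1l, whose log2 intensity was 6.22, 5.95, 6.09 and 5.95 in TBC1D4-deficient replicates 1 to 4, against 6.24, 6.08, 5.84 and 5.99 in wild-type replicates 1 to 4. The arrays poorest in the markers read highest, for a slope of -0.22 (-0.37 to -0.07, limma adjusted p = 0.328). Tbc1d13 read 6.60, 6.70, 6.59 and 6.72 in TBC1D4-deficient replicates 1 to 4, against 6.49, 6.57, 6.80 and 6.80 in wild-type replicates 1 to 4, with a slope of 0.17 (0.03 to 0.32). Wild-type replicates 3 and 4, the richest in the markers, were the highest for this gene. Tbc1d12 read 6.32, 5.94, 6.02 and 6.12 in TBC1D4-deficient replicates 1 to 4, against 6.23, 6.30, 6.21 and 6.17 in wild-type replicates 1 to 4, with a slope of -0.16 (-0.31 to -0.0049). That slope rested largely on TBC1D4-deficient replicate 1, without which Tbc1d12 had a slope of -0.07 (limma adjusted p = 0.960). Tbc1d9b had the next smallest p, with 6.60, 6.82, 6.82 and 6.65 in TBC1D4-deficient replicates 1 to 4, against 6.61, 6.69, 6.75 and 6.74 in wild-type replicates 1 to 4, and a slope of 0.12 (-0.02 to 0.26). Over the family 15 slopes were positive and 25 negative, beside 48.5% positive over all probe sets. For the 2 central genes the slopes were 0.03 (-0.22 to 0.28) for Tbc1d4 and 0.04 (-0.11 to 0.18) for Tbc1d1. In bulk samples fewer cells of a type and less RNA per cell cannot be told apart.

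The arrays also differed by description number, and 3 family members had an unadjusted p under 0.05 in that contrast, beside 11.6% of all probe sets. None passed after adjustment (0.00868% of all probe sets did). Usp6nl averaged 6.42 in the arrays numbered 9 to 12 and 6.20 in those numbered 5 to 8. By array it read 6.49, 6.36, 6.34 and 6.22 in TBC1D4-deficient replicates 1 to 4, of which the first 2 are in the higher set, against 6.33, 6.13, 6.10 and 6.49 in wild-type replicates 1 to 4, of which the first and last are. The difference between the sets was 0.22 (0.06 to 0.37, limma adjusted p = 0.303). The second, dimmer probe set of Usp6nl did not share it, at -0.06 (-0.28 to 0.17). Tbc1d15 read 6.20, 5.82, 5.96 and 5.69 in TBC1D4-deficient replicates 1 to 4, against 6.05, 5.82, 5.72 and 6.10 in wild-type replicates 1 to 4, and differed by 0.25 between the sets (0.03 to 0.46). Tbc1d32 read 5.81, 5.73, 5.74 and 5.59 in TBC1D4-deficient replicates 1 to 4, against 5.88, 5.63, 5.70 and 5.85 in wild-type replicates 1 to 4, and differed by 0.15 (0.01 to 0.29). Within the 2 number sets, the genotype difference had the same sign for 13 of the 39 members other than Tbc1d4, beside 49.5% of all probe sets.

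**Figure D4:**
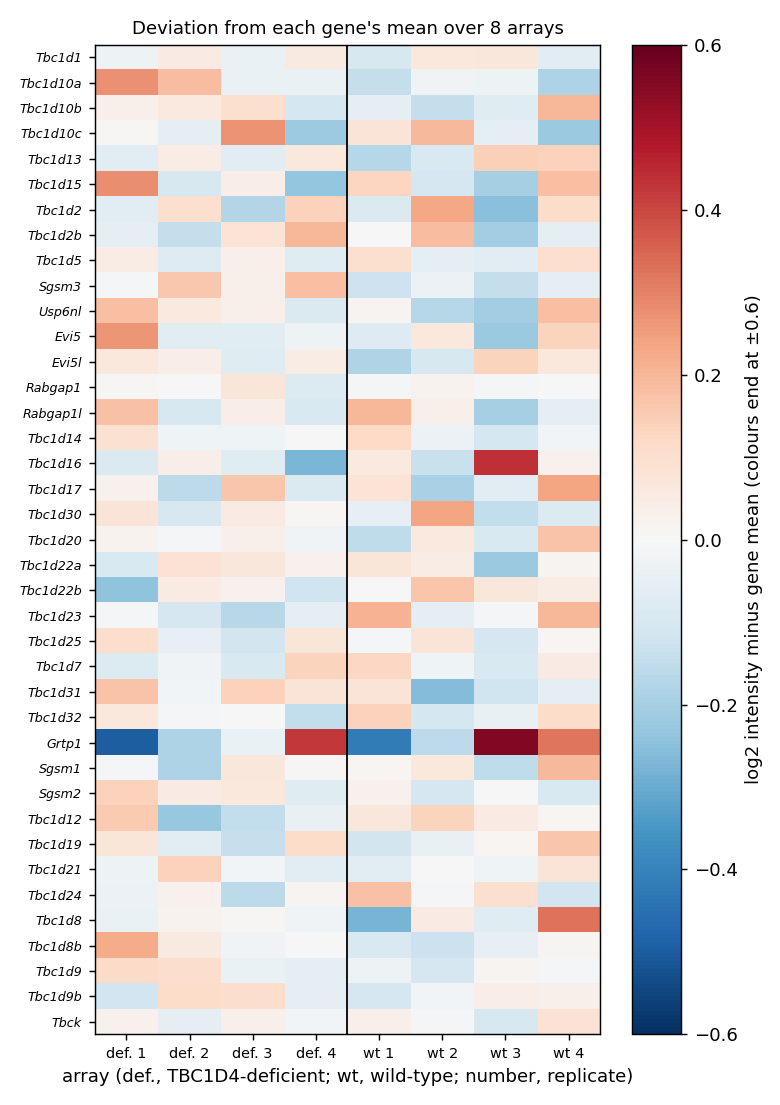
Log2 intensity of the 39 family members other than Tbc1d4 (rows, by role) in 4 TBC1D4-deficient and 4 wild-type arrays (columns), each minus the gene's mean over the 8 arrays. No block of rows separates the genotypes, and Grtp1 has the strongest colours.

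A second probe set of Tbc1d9, singled out after its values were seen, went against the first by description number. The second read 4.50, 4.64, 4.83 and 5.10 in TBC1D4-deficient replicates 1 to 4, against 4.66, 5.10, 5.03 and 4.53 in wild-type replicates 1 to 4, and was lower by number set in the arrays numbered 9 to 12 (log2 difference -0.43, -0.60 to -0.26, limma adjusted p = 0.118). The first stood at 0.09 (-0.04 to 0.23) in the same contrast. Between genotypes the second stood at -0.06 (-0.41 to 0.28) and the first at 0.06 (-0.09 to 0.20). Both of these intervals include 0, so the opposite signs do not tell the probe sets apart.

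Genes that work with the family were counted from lists chosen by role. Of 26 Rab GTPases that family members act on or bind, 10 lay above and 16 below 0, with a median of -0.02, and 0 passed. The Rabs assigned to TBC1D4 stood at -0.06 (Rab10, -0.18 to 0.06), -0.01 (Rab14, -0.15 to 0.13) and 0.0034 (Rab8a, -0.13 to 0.14). The smallest p-values belonged to Rab27a, of secretory vesicles, at 0.14 (-0.03 to 0.31), Rab38 at 0.10, Rab5c, of early endosomes, at -0.10 and Rab22a at 0.07. Of 19 upstream kinases, 14-3-3 proteins and cargo of TBC1D4, 8 lay above and 11 below 0, with a median of -0.02 and 0 past the test. Prkaa2, a catalytic subunit of AMPK, stood at -0.12 (-0.29 to 0.04), the 14-3-3 genes Ywhaz and Ywhaq at -0.07 and -0.08, and Irs2, an insulin receptor substrate, at -0.15 (-0.49 to 0.19).

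Exchange factors, which load Rabs with GTP and so oppose the family, numbered 18 above and 10 below 0 of 28, with a median of 0.02 and 0 past the test. The list also holds Rab3gap1 (0.09) and Rab3gap2 (-0.03), which are named as GAPs for Rab3. Rin1, an exchange factor for Rab5, averaged 3.24 ± 0.17 in TBC1D4-deficient and 3.44 ± 0.07 in wild-type arrays (SD, n = 4 each) without overlap, a difference of -0.20 (-0.39 to -0.0074, limma adjusted p = 0.9999). Its log2 level is close to the array median. Rin1 was the 1 of the 28 whose groups did not overlap downward, beside 0.907% of all probe sets. Upward there were 0, beside 0.942%. Madd, an exchange factor for Rab3 and Rab27, stood at 0.13 (-0.03 to 0.29), Dennd2a at 0.12 and Rabif at 0.10.

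The sorted material carried the DCT markers evenly. The mean of 11 DCT markers, centred by gene, ran from -0.03 to 0.03 in TBC1D4-deficient and from -0.04 to 0.01 in wild-type arrays, and the lowest of them, Emx1, stood on average at percentile 95.8 of its array. Proximal tubule markers were lower in the TBC1D4-deficient group for 21 of 21 genes with overlapping arrays, and 0 passed. As list means, markers of neighbouring segments were also read well above the array median. Single genes were not always so: Aqp4, of the principal cell, stood on average at percentile 25.1. Fxyd4, of the same list, stood at 51.0 and Enox1, of the thick ascending limb list, at 54.2. The mean log2 level of 8 thick ascending limb markers was 6.46 to 6.72 in TBC1D4-deficient and 6.56 to 6.86 in wild-type arrays, with 5 of 8 lower in the TBC1D4-deficient group. For 7 connecting tubule and principal cell markers it was 4.80 to 5.17 in TBC1D4-deficient and 4.99 to 5.42 in wild-type arrays, with 7 of 7 lower. For 8 intercalated cell markers it was 5.52 to 6.20 in TBC1D4-deficient and 5.60 to 6.29 in wild-type arrays, with 7 of 8 lower. The arrays overlapped in each of these lists and 0 genes passed. Podocyte, fibroblast and leukocyte markers had mean log2 levels of 2.66 to 3.17 in TBC1D4-deficient and 2.66 to 3.21 in wild-type arrays, near or below the array median. Lower in the TBC1D4-deficient group were 2 of 4 podocyte, 7 of 8 fibroblast and mural cell, and 3 of 10 leukocyte markers. Of the 7, 2 had a limma unadjusted p under 0.05 (beside 1.48% of all probe sets in that direction). After adjustment 0 passed in these lists. Pairs of arrays had log2 correlations between 0.993 and 0.997.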

How the data were processed

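RNA from sorted tubules (100 ng) was labelled with biotin and read on 1-colour arrays, 1 per sample, per the labels' protocols. The deposited values are linear intensities, 1 for each of 28371 probe sets and each array. Affymetrix Power Tools was used, per the submitters' processing notes, and the sources used here state neither its version nor how probes were summarised and normalized. Array medians ran from 8.41 to 9.03. Any scaling between arrays would hide a change shared by most genes. The table holds no detection call.

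The log2 of each intensity was taken with no pseudocount and no filter. Arrays were grouped by title, and limma 3.58.1 (R 4.3.3; lmFit, then eBayes) compared the genotypes 2-sided. The fit covered the 23039 probe sets that have a symbol (21158 have 1 and 1881 several, while 5332 have none). Benjamini-Hochberg adjusted p-values under 0.05 were called. All 40 member symbols matched RefSeq (GRCm38.p6) by gene identifier, and 0 were updated. A probe set that names Tbc1d8 together with another gene was in the fit but not among the members, and its values are not given. Other fits added the proximal tubule marker mean or the description number set to genotype. The fits were tested on simulated data.

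The members and lists were chosen with earlier results of these data known. Values in every array are given for Tbc1d4, Tbc1d1, members with an unadjusted p under 0.05 between genotypes, the 5 with the smallest p on the marker slope, the 3 with the smallest p by description number and the 3 with the largest residual SD (Grtp1, Tbc1d15 and Tbc1d16). Tbc1d10a and Tbc1d23 were added after their values were seen. Up to 4 partner genes per list are those with the smallest p, and Tsc2, Rptor, Rheb, Rab8a, Rab10 and Rab14 are named for their roles. A sequence comparison of the proteins is not analysed here.

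Alternatives were leaving out dim probe sets, fitting more or fewer probe sets, quantile and median normalization, an offset of 8, another eBayes prior, array weights, covariates from the labels' numbers, a replicate block, number sets alone, averaged probe sets and leaving out each array. The number of arrays (4 per genotype) limits the precision.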

Additional observations from a re-analysis of the deposited data

Results flagged for a closer look

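Among 80 groups of 4 values (40 genes in 2 genotypes), 2 held a value whose gap to the nearest of the others was, as a share of the group's range, above Dixon's critical value, and chance alone flags about 1 in 20 groups. Evi5 stood at 6.06 in TBC1D4-deficient replicate 1, against 5.72 to 5.76 in the other TBC1D4-deficient arrays. Evi5l stood at 4.185 in TBC1D4-deficient replicate 3, against 4.295 to 4.317 in the others of that genotype.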

How the results depend on the processing

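Over 23 alternatives of the genotype comparison, Tbc1d4 was the 1 probe set called in each. Where its log2 difference was recomputed it ran from -4.35 to -3.09, smallest in size with an offset of 8. The median of the other members ran from -0.02 to 0.03, and the count of their intervals inside 1.5-fold from 35 (dim probe sets left out, so fewer members) to 39. Tbc1d1 turned to -0.061 within arrays 5 to 8 and ran from -0.014 to 0.042 when 1 array was left out, below 0 without wild-type replicate 1 (-0.014) or 4 (-0.0042). Sgsm3 ran from 0.13 to 0.21 and Tbc1d31 from 0.07 to 0.30 over the 23 alternatives, with adjusted p of 0.997 to 1 for each. On the marker slope, 1 member (Grtp1) was called with no genotype term, and 0 to 1 when 1 array was left out, over a Grtp1 slope of 0.37 to 0.66 and an adjusted p of 0.0232 to 0.491. By description number 2 probe sets were called, 1 without dim probe sets, 4 over all probe sets, 1 with an offset of 8 and 0 to 4 when 1 array was left out, and 0 members in each of 17 alternatives; the cause was not tested. Same-numbered replicates deviated together in 1 of 4 pairs (correlations 0.40, -0.19, 0.04 and 0.01). Differently numbered pairs were not set beside them, so these values cannot tell whether the numbers pair the samples. With the replicate number as a block, Tbc1d4 stayed the 1 call (log2 difference -4.27, limma adjusted p = 2.65e-05), and no other call changed. Signal over background is unknown, which limits most of all the size of the Tbc1d4 fold, and statements on Tbc1d10c, Tbc1d21 and Tbc1d30.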
